A study of Mus musculus with 4 samples.

Results

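The endoplasmic reticulum stress genes Hspa5, Hsp90b1, Dnajb11, Sdf2l1, Dnajb9, Dnajc3, Manf, Herpud1, Xbp1 and Ddit3 were followed through single-cell RNA libraries of mouse pancreatic tumours. They were taken as every row of the 4 count matrices that carries one of the 10 symbols, which gave 11 of 32285 rows, because Ddit3 is listed under 2 gene identifiers. The second Ddit3 row, a short gene model inside the first, held 0 unique molecular identifiers (UMIs, counts of captured RNA molecules) in the cells analysed, so each symbol below stands for 1 row. The tumours grew from KPC46, an organoid line of mouse pancreatic ductal adenocarcinoma, in B6/129 F1J mice. The treated group was 2 mice given TAK-981 (Subasumstat), which inhibits the enzyme that activates SUMO, a small protein attached to other proteins. The control group was 2 mice given the vehicle, Cremophor. Dose, time, age and sex are not given in the sources used here and neither is the site of the tumours. All 4 tumours came from the same organoid line, and each library came from 1 mouse.

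When unfolded proteins build up in the endoplasmic reticulum, the sensors IRE1, PERK and ATF6 start the unfolded protein response. ATF6 and the spliced form of XBP1 raise chaperones and degradation factors, while PERK, through ATF4, raises CHOP, the product of Ddit3, which is known for promoting cell death under lasting stress. Pancreatic exocrine cells and plasma cells, which secrete much protein, are known for high levels of this machinery. Counts per gene give neither the splicing of Xbp1 nor any protein.

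The control regions of these genes are known for elements made of paired half-sites, and the matches are shown here because the members differ in them. RefSeq promoters of build GRCm38.p6, from 250 bases before to 50 after the gene start, were matched for 9 of the 10 genes. The classical form, CCAAT, 9 bases and CCACG, was found on either strand in 3 of the 9 genes and in 35 of 27025 promoters (0.130%). A second form, ATTGG, 1 base and CCACG, was found in 2 of the 9 genes and in 10 of 27025 promoters (0.0370%). In the sequences below, 5′ to 3′ along the gene's strand, capitals mark the half-sites, and distances are counted from the RefSeq start. GENCODE starts Hspa5 further upstream, at 34771970, so by that annotation its element lies in the first exon. The Hsp90b1 stretch holds a copy on each strand, and the copy on the opposite strand reads CGTGG, 9 bases and ATTGG. The 8-letter elements TGACGTGG and TGATGNAA were also looked for on both strands. The first was in 0 of the 9 genes and in 164 promoters (0.607%), and the second was in Herpud1 and in 1096 promoters (4.06%). The matches found in the 9 genes did not overlap each other, and a match describes letters only.
Hspa5, chr2:34772020-34772048, plus strand, 70 to 42 bases before the start: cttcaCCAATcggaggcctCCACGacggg
Hsp90b1, chr10:86705518-86705671, minus strand, 227 to 74 bases before the start: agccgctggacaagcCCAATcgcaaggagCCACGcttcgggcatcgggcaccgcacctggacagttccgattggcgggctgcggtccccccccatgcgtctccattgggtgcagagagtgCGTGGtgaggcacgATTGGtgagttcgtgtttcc
Dnajc3, chr14:118937812-118937860, plus strand, 120 to 72 bases before the start: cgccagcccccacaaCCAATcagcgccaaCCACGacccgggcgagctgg
Herpud1, chr8:94386362-94386402, plus strand, 67 to 27 bases before the start: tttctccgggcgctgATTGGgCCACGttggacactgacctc
In Dnajb11 the second form lies 8 to 18 bases after the start, in the transcribed part. Whether the 4 genes printed differed from each other in their response to TAK-981 was not tested.

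Cells numbered 2214 and 3110 in the TAK-981 libraries and 4408 and 4130 in the vehicle libraries, from library totals of 24411656 to 63898758 UMIs. The median mitochondrial share was 6.90% and 5.11% in TAK-981 libraries, against 2.93% and 2.71% in vehicle libraries, and epithelial-like cells held a median of 15614 and 20700.0 UMIs in TAK-981 libraries and 11568.5 and 8669.5 in vehicle libraries. The part of depth and mitochondrial share in the results was not tested beyond the alternatives given with the processing. Cells were clustered without the 10 genes and named "-like" from marker genes. The epithelial-like cells carried the keratins Krt8, Krt18 and Krt19 at 801 to 2152 CPM (UMIs of a gene relative to all UMIs of the class, on the usual CPM scale), while Epcam, a usual epithelial surface marker, stood at 10.9 and 5.49 CPM in TAK-981 libraries and 11.3 and 0.0444 CPM in vehicle libraries. Of the 8 listed epithelial markers, clusters 2, 7 and 13 carried 4 in at least 10% of cells, cluster 11 carried 3, and clusters 14 and 25 carried 5. None was among the 10 leading genes of these clusters, and cluster 11 was led by Gm42418, Lars2 and mt-Atp8. Cluster 21 carried 5, with 1 leading, and cluster 23 all 8, with 3 leading. Levels of Krt7, Cldn4, Cldn7 and Cdh1 are not given here. Erythroid markers in epithelial-like cells summed to 0.486 and 0.118 CPM with TAK-981 and 246 and 116 CPM with vehicle. Their part in the results was not tested. Library pairs shared 1 to 10 cell barcodes.

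TAK-981 tumours were compared with vehicle tumours class by class, on UMIs summed per mouse and class, with edgeR's quasi-likelihood test over all genes of the class (n = 2 mice per group). Values are CPM scaled by TMM, which sets the typical gene to no change, and each fold change is given as the log2 ratio of TAK-981 to vehicle with its standard error (SE). In epithelial-like cells all 10 genes had a fold change above 0, with a median of 0.65 against 0.01 over all genes tested. A single member, Dnajb11, passed an adjusted p of 0.05, upwards, and 5 of 10 members had an unadjusted p below it, as did 2650 of 12766 genes tested. Of all 12766 genes tested in that class 0.517% were called higher and 1.69% lower. For 7 of the 10 members both TAK-981 libraries lay above both vehicle libraries, as did 26.9% of all genes tested. In macrophage-like cells 9 of 10 members had a positive fold change (median 0.24) and 5 lay apart upwards, where 22.9% of all genes did. No member was called there, where 0.0% of all genes were called higher and 0.0% lower by edgeR. With edgeR 3 of 10 members and 1412 of 10484 genes had an unadjusted p below 0.05 in that class, and DESeq2 called 1 member.

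In fibroblast-like cells all 10 members had a positive fold change (median 0.39), 5 lay apart upwards against 20.4% of all genes, and 0 were called by edgeR or by DESeq2, with 2 members, and 892 of 8973 genes, below an unadjusted p of 0.05. There 0.256% of all genes were called higher and 0.736% lower. Macrophage markers in that class summed to 2079.7 and 771 CPM with TAK-981 and 298 and 472 CPM with vehicle (8 of 8 tested positive, 2 called higher), and acinar markers to 293 and 172 against 22.4 and 6.26 CPM (6 of 6 tested apart upwards, 2 called higher), and their part in the results was not tested. In T or NK-like cells 8 members had enough counts for the test, 6 were positive (median 0.59), 5 lay apart upwards against 22.9% of all genes, and 0 were called by either tool, with 3, and 547 of 4098 genes, below an unadjusted p of 0.05. The called shares of all genes were 0.0976% higher and 0.293% lower in that class. In neutrophil-like cells 9 were tested, 7 were positive (median 0.27), 2 lay apart upwards against 25.0% of all genes, and 0 were called by either tool, with 1, and 562 of 3383 genes, below an unadjusted p of 0.05. All genes were called higher in 1.8% and lower in 0.443% of cases there. In the small dendritic-like and endothelial-like classes 8 members each were tested, 5 each lay apart upwards against 23.6% and 22.7% of all genes, and 0 were called by either tool, with 1 member each below an unadjusted p of 0.05, beside 462 of 3040 and 764 of 4684 genes. Dendritic-like cells had 0.592% of genes called higher and 4.01% lower, and endothelial-like cells 0.747% and 1.35%. Of the 8 members, 5 were positive in dendritic-like (median 0.30) and 6 in endothelial-like cells (median 0.54). The median over all genes tested was -0.0021 in macrophage-like, 0.00069 in fibroblast-like, -0.02 in T or NK-like, -0.02 in neutrophil-like, 0.03 in dendritic-like and 0.01 in endothelial-like cells.

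**Figure D1:**
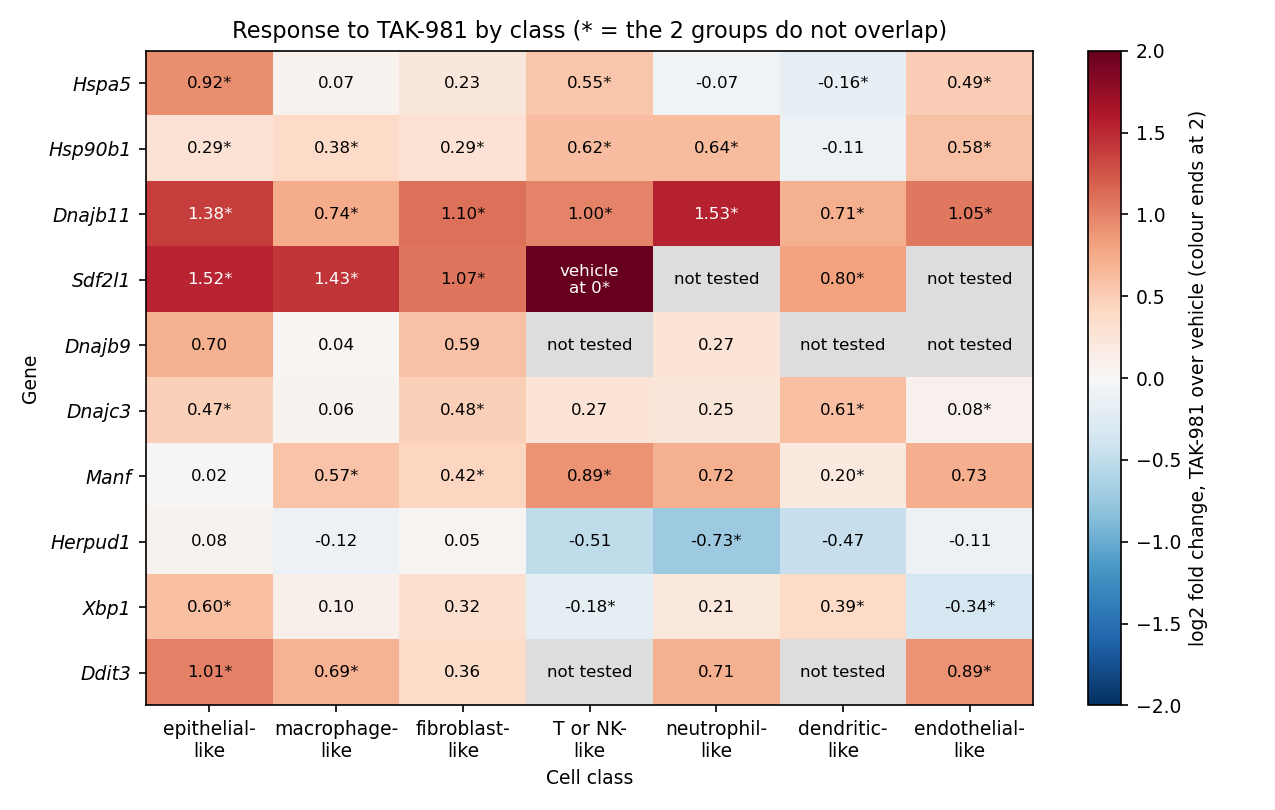
Log2 fold change of TAK-981 over vehicle for each of the 10 genes (rows) in 7 cell classes (columns), with an asterisk where the 2 TAK-981 libraries do not overlap the 2 vehicle libraries. Dnajb11 was positive and apart in all 7 classes (0.71 to 1.53), and Sdf2l1 had 0 counts in both vehicle libraries of T or NK-like cells.

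Hspa5 encodes BiP, the main Hsp70 chaperone of the endoplasmic reticulum (chromosome 2, 34771970 to 34777547, GRCm38). In epithelial-like cells it had 785 and 967 CPM in TAK-981 tumours, against 488 and 437 CPM in vehicle tumours. Both TAK-981 values were above both vehicle values, and the fold change of 0.92 ± 0.23 (SE) missed the threshold in edgeR (adjusted p = 0.0922), while DESeq2 called it (adjusted p = 0.00155). In macrophage-like cells the level was 696 and 880.1 CPM with TAK-981 and 861 and 639 CPM with vehicle, which overlap (0.07 ± 0.27). T or NK-like cells (528 and 548 against 330.5 and 409.6 CPM) and endothelial-like cells (941 and 1136 against 918 and 559 CPM) had higher values in both TAK-981 libraries, and dendritic-like cells lower ones (523 and 619 against 622 and 658 CPM; -0.16 ± 0.28, and 0.11 with class totals in place of TMM). Fibroblast-like cells had 1247 and 1642 CPM with TAK-981 and 1219 and 1249 CPM with vehicle, which overlap (0.23 ± 0.33). Neutrophil-like cells stood at 836 and 942 CPM with TAK-981 and 987 and 879.6 CPM with vehicle, a fold change of -0.07 ± 0.44, which was 0.026 with class totals.

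Hsp90b1 encodes GRP94, the Hsp90 chaperone that folds integrins and Toll-like receptors (chromosome 10, 86690209 to 86705509). Its promoter carries both copies of the classical element shown above. In epithelial-like cells Hsp90b1 had 491 and 546 CPM with TAK-981 and 465 and 382 CPM with vehicle. The fold change was 0.29 ± 0.22 (adjusted p = 0.499 by edgeR). The groups did not overlap there, nor in 5 of the other 6 classes, all upwards, but no fold change exceeded 0.64. Exons of the gene models Gm15344 and Gm25745 overlap this gene on its strand, so some of its reads could have been split among them.

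Dnajb11 encodes ERdj3, a J-domain protein that hands unfolded clients to BiP (chromosome 16, 22857845 to 22879634). In epithelial-like cells it rose to 120.5 and 103 CPM in TAK-981 tumours, against 47.9 and 38.1 CPM in vehicle tumours. The fold change was 1.38 ± 0.23, or 2.60-fold, with an adjusted p of 0.0441 by edgeR's quasi-likelihood test. Leaving out any 1 of the 4 libraries, TAK-981 1, TAK-981 2, vehicle 1 or vehicle 2, ended the call (adjusted p = 0.0601 to 0.147, fold change 1.21 to 1.54), as did leaving out genes with short transcripts (adjusted p = 0.0551). The call also ended with the replicate number as a block. Thinning every cell to 1000 UMIs gave 1.73 and an adjusted p of 0.00540 by edgeR, and leaving out the shallow epithelial-like cluster 11 gave 1.38 and 0.0420.

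The scaled CPM of this gene was higher in both TAK-981 libraries than in both vehicle libraries in every class tested. Macrophage-like cells had 109 and 111 CPM of Dnajb11 with TAK-981, against 72.4 and 59.5 CPM with vehicle (0.74 ± 0.21, adjusted p = 0.216). Fibroblast-like cells had 131 and 128 CPM with TAK-981, against 67.4 and 54.4 CPM with vehicle (1.10 ± 0.29, adjusted p = 0.182). T or NK-like cells had 114 and 110.1 CPM with TAK-981 and 53.1 and 60.2 CPM with vehicle (1.00 ± 0.41, adjusted p = 0.321). The TAK-981 libraries of these 3 classes thus lay in a narrow band, and the groups did not overlap. Neutrophil-like cells had 86.9 and 71.5 CPM with TAK-981 against 20.3 and 34.2 CPM with vehicle (1.53 ± 0.53, adjusted p = 0.185), on only 8 and 17 UMIs with TAK-981 and 10 and 11 with vehicle. Neutrophil markers in that class summed to 31165 and 31003 CPM with TAK-981 and 74134 and 70399 CPM with vehicle (6 of 9 apart lower, 1 called lower), and their part in the result was not tested. In dendritic-like and endothelial-like cells the fold changes were 0.71 ± 0.37 and 1.05 ± 0.45. Without TAK-981 2, which held 16 endothelial-like cells, the endothelial-like fold change was 1.33. Of the 1885 genes tested in all 7 classes, 1.8% had TAK-981 libraries above vehicle libraries in every class, and Dnajb11 was the 1 member among the 7 members tested in all classes.

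Sdf2l1 encodes an endoplasmic reticulum protein that works with ERdj3 and BiP (chromosome 16, 17130138 to 17132383). Epithelial-like cells had 67.2 and 64.0 CPM of it in TAK-981 tumours and 32.4 and 13.6 CPM in vehicle tumours. The groups did not overlap, but the vehicle mice differed from each other more than the TAK-981 mice, and the fold change of 1.52 ± 0.40 did not pass by edgeR (adjusted p = 0.110). Without vehicle 1 it passed (2.26, adjusted p = 0.0275), and DESeq2 called it (adjusted p = 0.00447). Macrophage-like cells had 157 and 141 CPM with TAK-981, against 64.0 and 46.0 CPM with vehicle, a fold change of 1.43 ± 0.24 with an adjusted p of 0.0728 by edgeR and 0.000883 by DESeq2. Without TAK-981 1 the adjusted p was 0.0182, and without TAK-981 2 it was 0.0111, both by edgeR.

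Within macrophage-like cells, cluster 5, led by the complement genes C1qa and C1qc, held 221 to 329 cells of each library. The rest of the class was less even, with 110 and 120 TAK-981 cells and 611 and 72 vehicle cells in cluster 0. Cluster 1 held 39 and 127 TAK-981 cells against 343 and 174 vehicle cells, and cluster 17 held 308 and 42 against 114 and 41. In cluster 5 alone Sdf2l1 had 167 and 151 CPM with TAK-981 and 61.6 and 38.9 CPM with vehicle. The gene passed there (1.67 ± 0.29, adjusted p = 0.0355 by edgeR), in a fit chosen after the data had been seen. Fibroblast-like cells had 53.1 and 65.3 CPM with TAK-981 against 21.4 and 33.6 CPM with vehicle (1.07 ± 0.35, adjusted p = 0.315). T or NK-like cells had 29 and 21 UMIs of Sdf2l1 with TAK-981 and 0 and 0 with vehicle. Set against a floor of 3 counts over the vehicle group, the level with TAK-981 was at least 6.25-fold higher, and the adjusted p was 0.0850 by edgeR. Epithelial markers in T or NK-like cells summed to 1387 and 310 CPM with TAK-981 and 78.1 and 619 CPM with vehicle. Their part in the result was not tested. Dendritic-like cells had 131 and 151 CPM with TAK-981 and 77.3 and 88.6 CPM with vehicle. Counts in neutrophil-like and endothelial-like cells were too few for the test, with 6 and 8 UMIs in TAK-981 neutrophil-like cells against 4 and 2 with vehicle, and 25 and 4 UMIs in TAK-981 endothelial-like cells against 7 and 4 with vehicle.

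**Figure D2:**
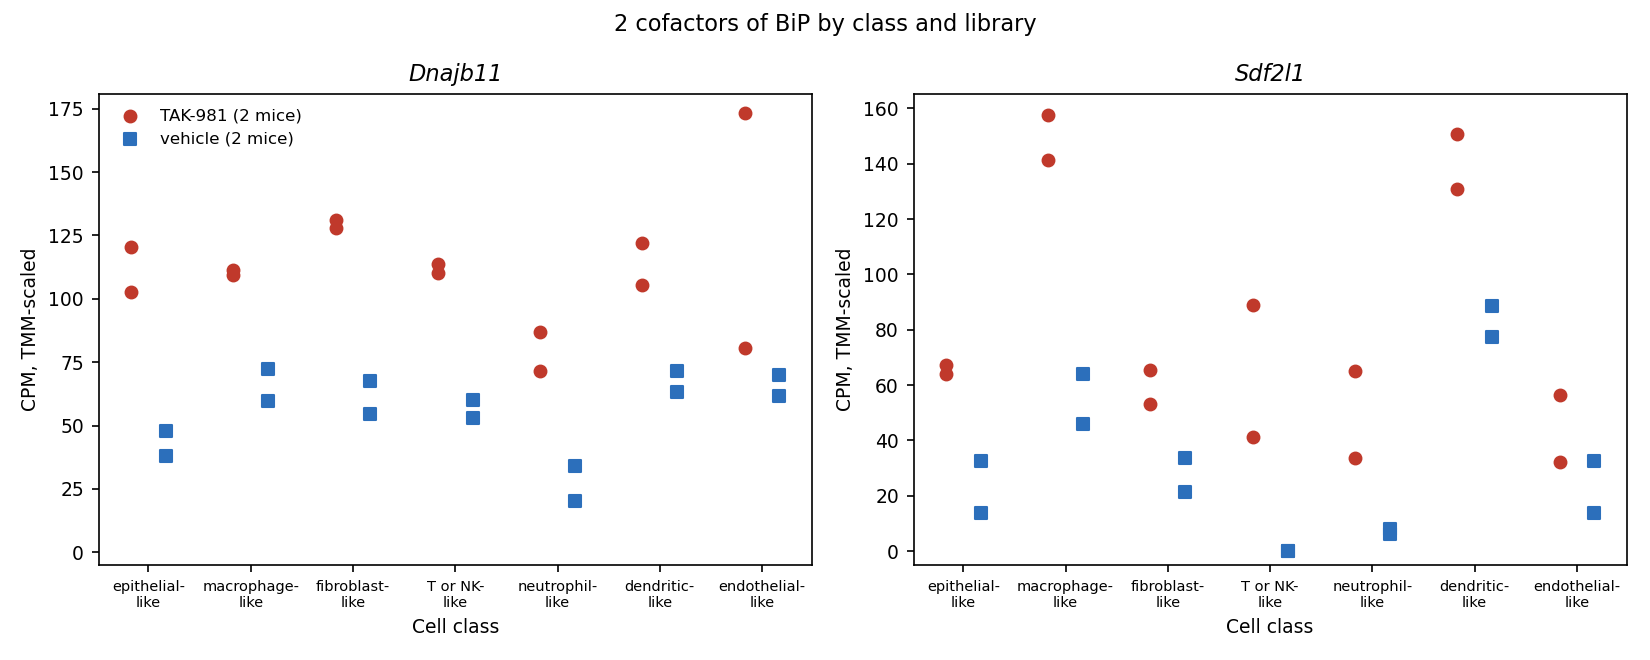
TMM-scaled CPM of Dnajb11 (left) and Sdf2l1 (right) in 7 cell classes, 1 point per mouse, with TAK-981 as red circles left of vehicle as blue squares. For Dnajb11 every TAK-981 point lies above the vehicle points of its class, while Sdf2l1 in endothelial-like cells overlaps (56.3 and 32.2 against 32.6 and 13.7 CPM).

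RNA of acinar cells, the enzyme-secreting cells of the pancreas, moved with treatment in other classes. In macrophage-like cells 11 of 12 acinar markers were tested and all 11 lay apart upwards, with a summed level of 637 and 273 CPM in TAK-981 libraries against 47.3 and 34.1 CPM in vehicle libraries. In epithelial-like cells the sum was 199.8 and 94.3 CPM with TAK-981 and 25.0 and 5.33 CPM with vehicle, and in T or NK-like cells 1383 and 506 against 115 and 10.3 CPM. None of the 12 markers was at 0 in every library of the epithelial-like class. In the acinar-like cells of the TAK-981 libraries the markers summed to 218745 and 401505 CPM. Sdf2l1 had 18.9 and 29.5 CPM in those cells and Dnajb11 83.0 and 82.7 CPM. The part of acinar RNA in the results of the other classes was not tested. Macrophage markers in epithelial-like cells summed to 978 and 111 CPM with TAK-981 and 36.5 and 39.0 CPM with vehicle, 10 of 12 apart upwards, against 39705 and 30555 CPM in TAK-981 macrophage-like cells. Their part in the epithelial-like results was not tested.

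Dnajb9 encodes ERdj4, a J-domain protein that represses IRE1 and aids degradation (chromosome 12, 44205559 to 44210326). Epithelial-like cells had 18.6 and 32.7 CPM with TAK-981 and 11.8 and 19.7 CPM with vehicle, so the groups overlapped (0.70 ± 0.37, adjusted p = 0.343 by edgeR). In the other 3 classes where it could be tested the groups overlapped as well, with fold changes of 0.04 to 0.59. Dnajc3 encodes p58IPK, a J-domain cochaperone first known as an inhibitor of eIF2α kinases (chromosome 14, 118937976 to 118981697). It stood at 56.9 and 76.6 CPM with TAK-981 and 43.8 and 52.3 CPM with vehicle in epithelial-like cells (0.47 ± 0.24, adjusted p = 0.327). Its fold change was positive in all 7 classes, at 0.06 to 0.61, and the groups lay apart in 4 of them.

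Manf encodes a factor that is retained in the endoplasmic reticulum and secreted under stress (chromosome 9, 106838312 to 106891979). In epithelial-like cells it did not follow the BiP cofactors, with 264 and 331 CPM in TAK-981 tumours and 347 and 241 CPM in vehicle tumours (0.02 ± 0.27, adjusted p = 0.976 by edgeR). Macrophage-like cells had 296 and 294 CPM with TAK-981 against 221 and 175 CPM with vehicle (0.57 ± 0.23, adjusted p = 0.350). T or NK-like cells had 209 and 216 CPM with TAK-981 against 118 and 108 CPM with vehicle (0.89 ± 0.35, adjusted p = 0.304). The groups did not overlap in these 2 classes, and the difference between epithelial-like and T or NK-like cells was -1.02 ± 0.49 (adjusted p = 0.575). In endothelial-like cells Manf had a fold change of 0.73 ± 0.45, and of 1.11 without TAK-981 2. Its span in the annotation overlaps exons of Rbm15b on the same strand.

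Herpud1 encodes a membrane protein of the degradation complex that returns misfolded proteins to the cytosol (chromosome 8, 94386438 to 94395377). Its epithelial-like level was 124 and 136 CPM with TAK-981 and 74.0 and 173 CPM with vehicle, so the vehicle mice enclosed the TAK-981 mice (0.08 ± 0.39, adjusted p = 0.933 by edgeR). It was the member with the lowest fold change in 5 of 7 classes. Neutrophil-like cells had 21.7 and 63.1 CPM with TAK-981 and 83.3 and 77.7 CPM with vehicle, both TAK-981 values being lower (-0.73 ± 0.53, adjusted p = 0.537, on 2 and 15 UMIs with TAK-981).

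Xbp1 encodes the transcription factor activated by IRE1 through splicing of its RNA (chromosome 11, 5520659 to 5525893). Epithelial-like cells had 65.6 and 79.6 CPM of total Xbp1 RNA with TAK-981 and 40.8 and 55.2 CPM with vehicle, without overlap (0.60 ± 0.25, adjusted p = 0.238 by edgeR, and 0.02 in cluster 2 alone). T or NK-like cells (70.6 and 62.9 against 76.7 and 72.3 CPM) and endothelial-like cells (200.4 and 193 against 265 and 237 CPM) had lower values in both TAK-981 libraries, with fold changes of -0.18 ± 0.42 and -0.34 ± 0.34 that did not pass; with class totals the T or NK-like value was 0.16. In dendritic-like cells Xbp1 had 266 and 206 CPM with TAK-981 and 202 and 139 CPM with vehicle (0.39 ± 0.33), and in the other 3 classes the groups overlapped. Ddit3 encodes CHOP (chromosome 10, 127290774 to 127296288). In epithelial-like cells it had 41.8 and 54.0 CPM with TAK-981, against 25.6 and 22.0 CPM with vehicle. Both TAK-981 mice were above both vehicle mice, and the fold change of 1.01 ± 0.24 missed the threshold in edgeR (adjusted p = 0.0846) and passed in DESeq2 (adjusted p = 0.00664). Macrophage-like cells had 28.0 and 58.4 CPM with TAK-981 and 27.3 and 26.0 CPM with vehicle, so TAK-981 1 lay close to the vehicle level (0.69 ± 0.36). In cluster 5 of that class alone Ddit3 had 30.8 and 55.3 CPM with TAK-981 and 39.8 and 35.8 CPM with vehicle, which overlap (0.18 ± 0.34). Endothelial-like cells had 40.5 and 72.5 CPM with TAK-981 and 18.6 and 34.3 CPM with vehicle (0.89 ± 0.59). In fibroblast-like cells (50.3 and 144 against 77.2 and 74.2 CPM) and neutrophil-like cells (282 and 677 against 394 and 202 CPM) the groups overlapped. The neutrophil-like class joins clusters 6, 8 and 24. Cluster 6 held 39 and 43 TAK-981 cells and 562 and 379 vehicle cells, and cluster 8 held 8 and 68 against 175 and 79. Cluster 24, led by Camp, Ngp and Ltf, held 0 and 0 TAK-981 cells and 21 and 1 vehicle cells. Ddit3 stood at 288 and 524 CPM of the cluster total with TAK-981 and 172 and 98.3 CPM with vehicle in cluster 6, and at 623 CPM in TAK-981 2 and 970.1 and 681 CPM with vehicle in cluster 8. Genes on the other strand, among them Mars, overlap Ddit3 exons.

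**Figure D3:**
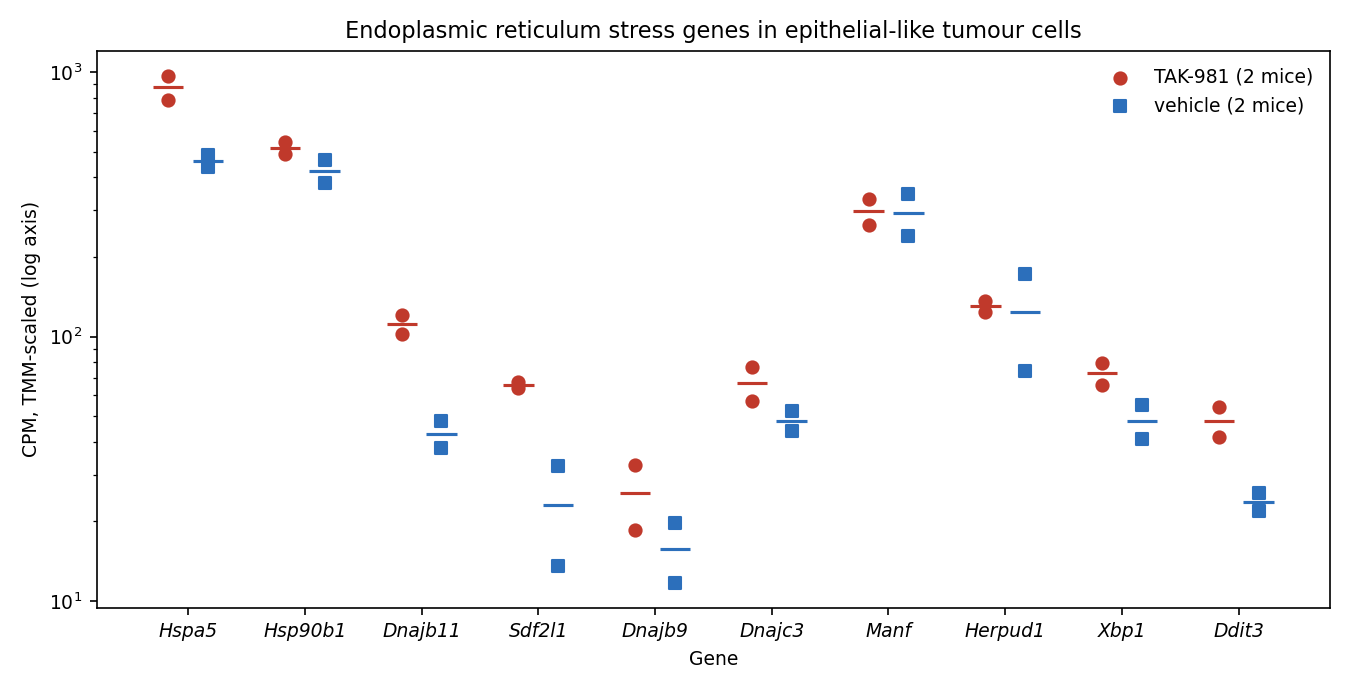
TMM-scaled CPM on a log axis for the 10 genes in epithelial-like cells, 1 point per mouse and a bar at the group mean, TAK-981 (red) left of vehicle (blue). Hspa5, Dnajb11, Sdf2l1 and Ddit3 show the clearest gaps, while Manf and Herpud1 overlap.

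Whether a response differed between epithelial-like cells and each other main class was tested as a class by treatment interaction. None of the 10 genes passed in any of the 4 contrasts, and 6 of 40 tests had an unadjusted p below 0.05 by edgeR. The share of all genes below that unadjusted p was not counted, so the 6 cannot be set against it. Of the 6, 1 was Sdf2l1 against T or NK-like cells, whose vehicle libraries held 0 UMIs of it. All genes called for a difference made up 0.728% of 11821 against macrophage-like, 0.406% against fibroblast-like, 0.0338% against T or NK-like and 1.27% against neutrophil-like cells. The smallest p belonged to Hspa5 against neutrophil-like cells, a difference of 1.47 ± 0.38 (adjusted p = 0.0666). Against macrophage-like cells Hspa5 differed by 0.91 ± 0.37 (adjusted p = 0.409) and Dnajb11 by 0.70 ± 0.29 (adjusted p = 0.415), while Sdf2l1 differed by 0.21 ± 0.42 (adjusted p = 0.959).

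The epithelial-like class was not made of the same clusters in both groups. Cluster 2, whose leading gene was the hormone gene Prl, held 52 and 148 cells of the TAK-981 libraries and 473 and 1697 of the vehicle libraries. Cluster 13 held 184 and 970 TAK-981 cells against 56 and 28 vehicle cells, and cluster 14, led by liver-type secreted genes such as Hp, Ttr and Alb, held 305 and 203 against 15 and 0. Within cluster 2 alone Ddit3 had 47.0 and 65.0 CPM with TAK-981 and 27.3 and 21.8 CPM with vehicle (1.22 ± 0.30, adjusted p = 0.0544 by edgeR). Dnajb11 had 64.4 and 83.0 CPM with TAK-981 and 37.8 and 35.5 CPM with vehicle there (1.03 ± 0.27, adjusted p = 0.0809), and neither gene's groups overlapped. Hspa5 had 611 and 668 CPM with TAK-981 and 541 and 437 CPM with vehicle in cluster 2, a fold change of 0.39 ± 0.25 against 0.92 in the whole class. Xbp1 had 45.3 and 61.4 CPM with TAK-981 and 48.2 and 58.5 CPM with vehicle in cluster 2, which overlap, and a fold change of 0.02 ± 0.29 against 0.60 in the whole class. Herpud1 had 97.5 and 68.6 CPM with TAK-981 and 75.5 and 185 CPM with vehicle (-0.68 ± 0.39).

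**Figure D4:**
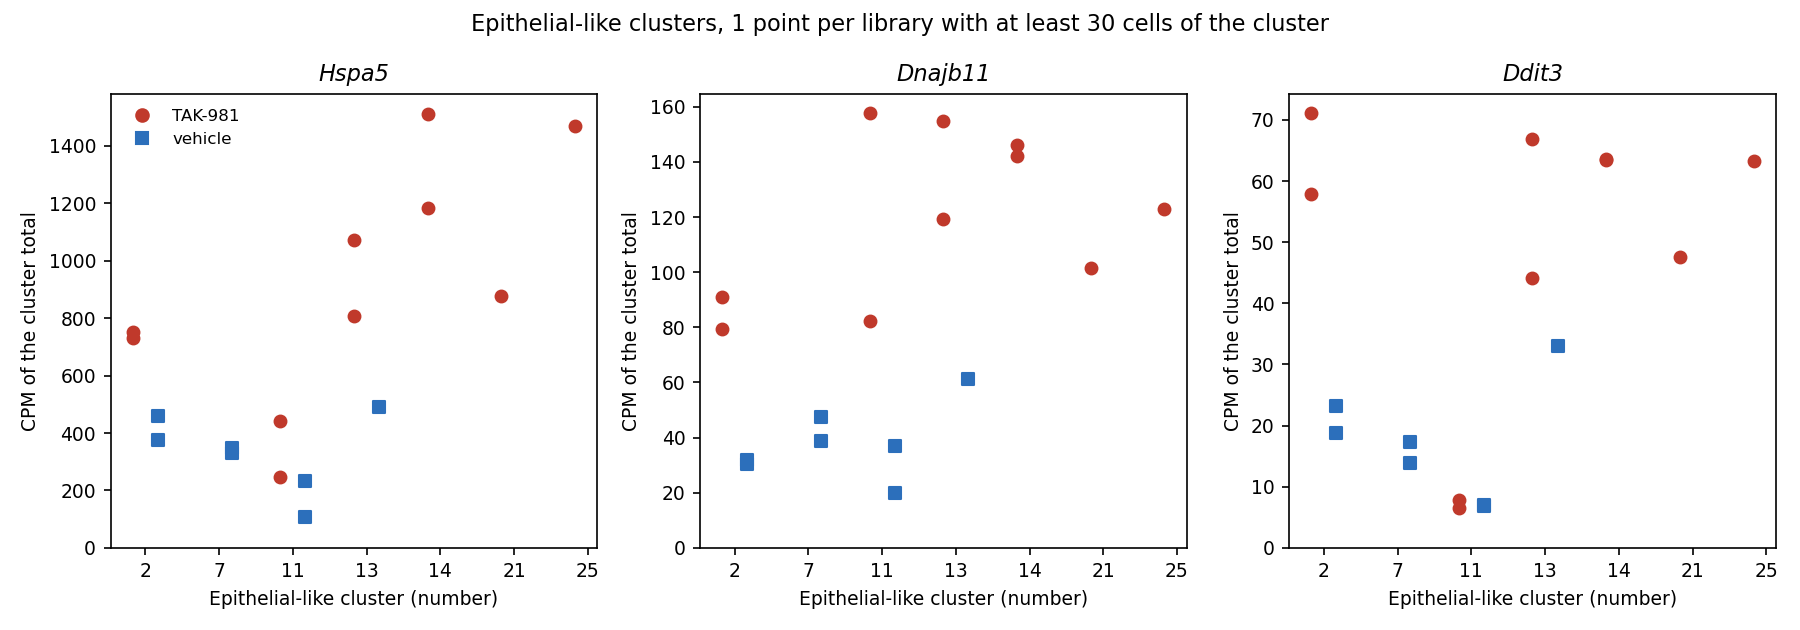
CPM of the cluster total for Hspa5, Dnajb11 and Ddit3 in the epithelial-like clusters, 1 point per library with at least 30 cells of the cluster, TAK-981 (red) left of vehicle (blue). Hspa5 reached 1185 and 1513 CPM in cluster 14 of the TAK-981 libraries and 1468 CPM in cluster 25 of TAK-981 2, and lay between 109 and 491 CPM in every vehicle point.

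In the vehicle libraries 137 of 1126 and 747 of 2406 epithelial-like cells held a Prl UMI, and in the TAK-981 libraries 0 and 3 did. Between vehicle cells with and without Prl the 10 genes differed by log2 ratios of -0.41 to 0.34. In cells thinned to 1000 UMIs the range was -2.15 to 1.59. Prl was read again from the thinned counts, which left 53 and 218 vehicle cells with a Prl UMI. Both ends of the thinned range rest on very few UMIs. In thinned cells with Prl, Dnajb11 stood at 4.59 CPM in vehicle 2 and Dnajb9 at 18.9 CPM in vehicle 1. Cells with Prl were deeper, with median UMIs of 16241 against 11060.0 in vehicle 1. Hspa5 had 466 CPM with Prl and 399 CPM without it in vehicle 1, and 332 and 381 CPM in vehicle 2, so the direction differed between the mice, and both directions turned in thinned cells (-0.26 and 0.09).

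Levels across cell classes, in CPM of the class total over the 4 libraries, are a description, since the classes were drawn from the same cells. Only libraries with at least 15 cells of a class were used. This left B-like cells of vehicle 1 alone and acinar-like cells of the TAK-981 libraries alone. Plasma-like cells, 30 cells of vehicle 1, had the highest medians for 8 of the 10 genes, among them Hsp90b1 with 3164 CPM, Hspa5 with 1380.3 CPM and Xbp1 with 977 CPM. Fibroblast-like cells followed for the chaperones, with 1106 to 1758 CPM of Hspa5 and 1033 to 1743 CPM of Hsp90b1, and the Hsp90b1 range overlapped no other class, while the Hspa5 range overlapped those of plasma-like, endothelial-like and epithelial-like cells. Neutrophil-like cells stood first for Ddit3, at 196 to 597 CPM with no overlap with the next class, and for Dnajb9, at 121 to 267 CPM, and second for Xbp1, at 458 to 768 CPM. The same cells had the lowest Hsp90b1, at 165 to 341 CPM, which overlapped the ranges of epithelial-like, T or NK-like, B-like and acinar-like cells. For Hspa5 the neutrophil-like (811 to 852 CPM), endothelial-like (483 to 1126 CPM), macrophage-like (600.2 to 957 CPM) and epithelial-like (361 to 1129 CPM) ranges overlapped each other. Levels are compared here within a gene only.

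**Figure D5:**
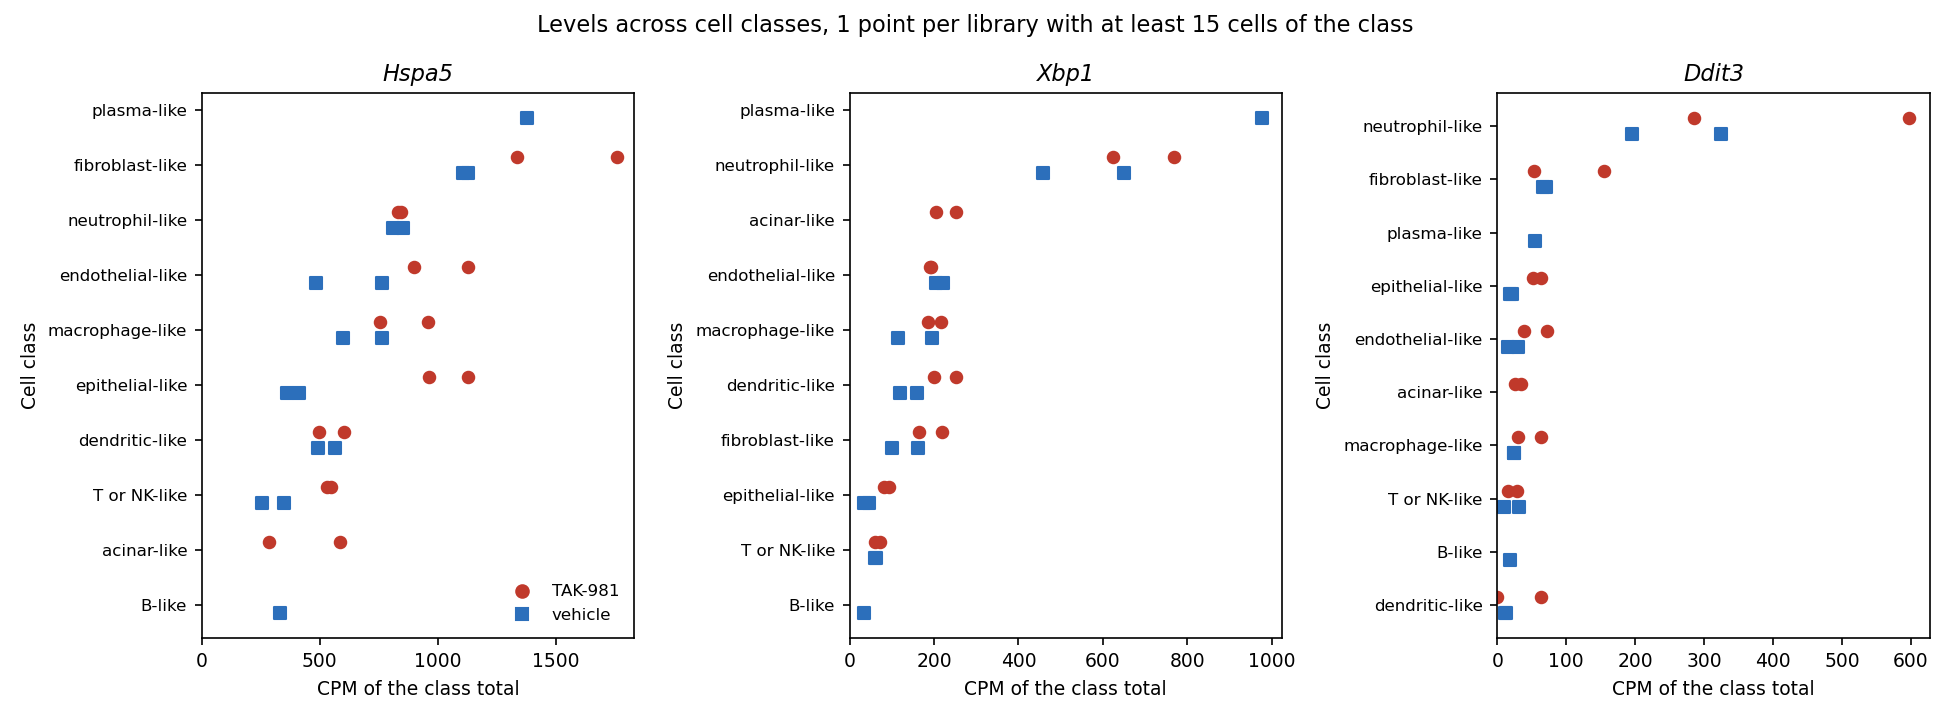
CPM of the class total for Hspa5, Xbp1 and Ddit3, 1 point per library with at least 15 cells of the class, classes ordered by their median, TAK-981 (red) above vehicle (blue). Fibroblast-like cells are high for Hspa5, and neutrophil-like cells for Xbp1 and Ddit3.

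Over the 20 sums of 4 libraries and 5 classes, which share libraries and depth, the members varied together to different degrees. Log2 CPM of Hsp90b1 had a Pearson r of 0.92 with Manf and 0.87 with Dnajc3. Among Dnajb9, Xbp1 and Ddit3 the values were 0.90 (Dnajb9 and Xbp1), 0.88 (Dnajb9 and Ddit3) and 0.86 (Xbp1 and Ddit3), and the lowest of all was -0.31, for Xbp1 and Manf. Of 3332 genes, the mean standardised pattern of the members was most like that of Nptn (r = 0.91), Ifnar2 (0.87), Tmem59 (0.86), Sec22b (0.84) and Spp1 (0.83) over the same sums.

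A wider list of 79 genes of the response was read from the same fits. In epithelial-like cells 78 were tested, with 0 called higher and 2 lower and a median of 0.11. By edgeR 17 had an unadjusted p below 0.05, a share near the 2650 of 12766 of all genes. Of the 78, 28 lay apart upwards and 14 downwards, where 26.9% of all genes lay apart upwards. Of 23 genes of the PERK and CHOP arm, 21 had a positive fold change (median 0.36) and 0 were called. In that arm 11 lay apart upwards, beside the same 26.9% of all genes. An unadjusted p below 0.05 was found for 5, again near the share of all genes. The largest positive fold change among those of mean log2 CPM of at least 5 was that of Cebpb, a partner of CHOP, which had 464 and 415 CPM in TAK-981 tumours and 182 and 78.5 CPM in vehicle tumours (1.76 ± 0.40, adjusted p = 0.0816). Of 10 oxidative folding genes 8 were positive (median 0.26), of 12 chaperones and cochaperones 8 (0.06), of 12 tested degradation genes 8 (0.14) and of 9 sensors and transcription factors 4 (-0.01), with 0 called in each. The called genes were both subunits of the translocon, the channel through which new proteins enter the endoplasmic reticulum, where 2 of 12 translocation genes were positive (median -0.20).

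Sec61g, the gamma subunit, had 168 and 257 CPM in TAK-981 epithelial-like cells and 1197 and 1054 CPM in vehicle cells, and fell by 2.40 ± 0.29 (adjusted p = 0.0183 by edgeR, and 0.0107 to 0.0344 with any 1 library left out). Sec61b, the beta subunit, had 184 and 189 CPM with TAK-981 and 484 and 440.4 CPM with vehicle, and fell by 1.31 ± 0.21 (adjusted p = 0.0365, but 0.0723 to 0.109 with any 1 library left out). Sec61a1, which encodes the channel itself, had 69.2 and 78.2 CPM with TAK-981 and 86.7 and 91.3 CPM with vehicle (-0.27 ± 0.21, adjusted p = 0.5004). Sec61g also fell by edgeR in fibroblast-like (-2.16 ± 0.32), dendritic-like (-2.42 ± 0.36) and endothelial-like cells (-1.67 ± 0.37). It was lower without passing by edgeR in macrophage-like (-1.95 ± 0.32, adjusted p = 0.0691), T or NK-like (-1.76 ± 0.35, adjusted p = 0.0519) and neutrophil-like cells (-1.55 ± 0.47). DESeq2 called it in macrophage-like (adjusted p = 5.38e-06) and T or NK-like cells (adjusted p = 0.0198). The fibroblast-like call ended without TAK-981 1 or TAK-981 2 (adjusted p = 0.561 and 0.415), and the endothelial-like call without TAK-981 1 or vehicle 2 (0.0774 and 0.1001). The shortest coding transcripts of Sec61g and Sec61b are 450 and 424 nt long, and that of Sec61a1 is 3172 nt. The longest transcript is 723 nt for Sec61b and 1862 nt for Sec61g, so Sec61b alone of these falls in the class of short genes. Genes whose longest transcript is under 800 nt made up 38.9% of all genes called lower in epithelial-like cells and 3.81% of those tested, and the part of transcript length in these results was not tested.

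In neutrophil-like cells 2 genes of the wider list were called higher. Pdia4, a disulphide isomerase, had 11 and 18 UMIs with TAK-981 and 2 and 4 with vehicle (3.54 ± 0.67, adjusted p = 0.0296). Nupr1, a stress-induced chromatin protein, had 25 and 34 UMIs with TAK-981 and 2 and 3 with vehicle (4.90 ± 0.64, adjusted p = 0.00759). Both calls ended without vehicle 1 or vehicle 2 (adjusted p = 0.440 to 0.512). Macrophage markers in this class summed to 4123 and 5824 CPM with TAK-981 and 1838 and 1138 CPM with vehicle (6 of 11 tested called higher). Acinar markers summed to 5976 and 601 against 160.2 and 39.1 CPM (3 of 6 tested called higher). Epithelial markers summed to 1053 and 664 against 177 and 443 CPM (2 of 3 tested apart upwards, 0 called). The part of these markers' cells in the result was not tested. In endothelial-like cells Cebpb rose to 339.97 and 322 CPM with TAK-981, against 93.1 and 123 CPM with vehicle (1.60 ± 0.36, adjusted p = 0.0490), a call that ended without vehicle 1 or vehicle 2 (adjusted p = 0.314 and 0.175). In the endothelial-like class macrophage markers summed to 1726 and 1286 CPM with TAK-981 and 217 and 480.04 CPM with vehicle, and acinar markers to 664 and 168 CPM against 15.5 and 0 CPM. Epithelial markers there stood at 1780.3 and 128 CPM with TAK-981 and 15.5 and 187 CPM with vehicle, and the part of these cells' RNA in the result was not tested. Among listed genes that did not pass, Ddit4 (-0.99) and Atf3 (-0.99) were lower in macrophage-like cells, Creld2 was higher (1.13) and Atf3 lower (-1.04) in fibroblast-like cells, Ssr2 (1.94) and Derl2 (1.63) were higher in T or NK-like cells, and Ddit4 (-1.66) was lower in neutrophil-like cells.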

How the data were processed

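The authors deposited raw UMI counts per gene and cell barcode for 4 single-cell 3′ v3.1 libraries (10x Genomics), made with Cell Ranger 6.1.2 on mm10 per the submitters' processing notes. Per the labels' protocols, dead cells were removed from samples of low viability. A barcode was kept as a cell from 500 UMIs and 250 detected genes upwards, unless mitochondrial UMIs exceeded 20%. Likely doublets were removed by Scrublet score at 0.8% per 1000 cells. Cells were clustered with scanpy 1.11.5 (2000 variable genes without the members, 30 components, 15 neighbours, Leiden resolution 1.0). A cluster took the name of its best-scoring marker list if 3 or more of that list's genes were present in at least 10% of cells. It stayed unnamed and untested if another list had more genes than its own among the 10 leading genes, or if its cells were shallow for their library and none of its own were there. This left out cluster 4 (609 cells, 11 macrophage markers found) and cluster 15 (337 cells, 10 acinar markers found), and rebuilt names may differ from the study's. UMIs were summed per mouse and class and tested with edgeR 4.0.16 (quasi-likelihood F test, filterByExpr, TMM) in R 4.3.3, with Benjamini-Hochberg adjusted p-values over all genes of a class at 0.05, and with DESeq2 1.42.0 as an alternative. Main classes had at least 30 cells in every library and small ones at least 15. The edgeR procedure was also run on counts simulated for epithelial-like and macrophage-like cells, and the outcome is not given here. Labels give no pairing of mice, and each p-value reflects variation between only 2 mice in a group. Replicate libraries differed beyond sampling noise (chi-square per degree of freedom of 90.7 for TAK-981 and 68.5 for vehicle in epithelial-like cells). All 10 genes are named in every class. Of the wider list, genes called in any class are named, and in each main class the 3 largest fold changes among genes of mean log2 CPM of at least 5 whose groups lay apart. The members, lists and tests were chosen with earlier results of these data known. Gene positions are from GENCODE (GRCm38). Protein sequences were not used here.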

Additional observations from a re-analysis of the deposited data

Results flagged for a closer look

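Hspa5 was lower in both TAK-981 libraries of dendritic-like cells than in both vehicle libraries (log2 fold change -0.16), whereas it was higher in both TAK-981 libraries of epithelial-like, T or NK-like and endothelial-like cells. The difference between dendritic-like cells and these classes was not tested. Xbp1 was lower in both TAK-981 libraries of T or NK-like cells (-0.18) and of endothelial-like cells (-0.34), and higher in both of epithelial-like and dendritic-like cells. The epithelial-like minus T or NK-like difference was tested by edgeR (0.54, adjusted p = 0.852), and the others were not tested. Both T or NK-like Xbp1 and dendritic-like Hspa5 turned positive when class totals replaced TMM (0.16 and 0.11).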

How the results depend on the processing

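The count of members called by edgeR in epithelial-like cells was 1, and 0 to 1 with any 1 library left out (1 only without vehicle 1, and then Sdf2l1), 4 with DESeq2, 6 with class totals in place of TMM, 4 with no filter on low counts, 3 with thinned cells (over all genes 282 calls became 1268, 1501, 1959 and 492), 0 without short transcripts and 0 in cluster 2 only. Class totals moved the median of all epithelial-like genes by 0.53. In macrophage-like cells the count was 0, and 1 with DESeq2, no filter or cluster 5 only (over all genes 0 calls became 258, 413 and 38). In T or NK-like cells it was 0, and 1 with no filter (over all genes 16 calls became 140). In endothelial-like cells it was 0, with calls only where TAK-981 2 was left out, a fit that keeps 1 TAK-981 mouse. The fits to clusters 2 and 5 and without cluster 11 were chosen after seeing the data. The wider list had 5 calls in the main classes, 16 with DESeq2, 19 with class totals, 19 with no filter and 3 at 1000 UMIs per cell. In epithelial-like cells alone the list had 0 genes called higher and 2 lower, beside 282 calls over all genes. There DESeq2 called 6 higher and 4 lower (1268 over all genes), class totals 16 and 1 (1501), and no filter 10 and 2 (1959). The median Prl difference was -0.09, and 0.12 in thinned cells. Same-numbered libraries did not deviate together (r = -0.07, -0.23, -0.12, -0.19 and -0.02 in the 5 main classes). With 2 mice per group this cannot exclude pairing, and the labels give none. The member count with the replicate block was 0 in epithelial-like and 1 in T or NK-like cells, and Dnajb9 in macrophage-like cells was -0.0054. With the block the wider list had 0 calls in dendritic-like (Sec61g, adjusted p = 0.0697 by edgeR) and endothelial-like cells (Sec61g 0.104, Cebpb 0.1198), and epithelial-like Sec61b had 0.0541. Of 812 alternatives for single members 730 kept direction and call, 51 reversed, 24 gained and 7 lost a call. Log2 values that reversed were, in cluster 2 only, Herpud1 -0.68 and Dnajb9 -0.22; with class totals, Herpud1 0.14 (macrophage-like) and 0.13 (endothelial-like), Xbp1 0.16 (T or NK-like), Hspa5 0.026 (neutrophil-like) and 0.11 (dendritic-like) and Hsp90b1 0.15 (dendritic-like). With no doublet removal they were Herpud1 0.028 (macrophage-like), Xbp1 0.017 (T or NK-like), and Manf -0.16, Hsp90b1 -0.33 and Dnajc3 -0.30 (neutrophil-like). In thinned cells they were Herpud1 0.10, Xbp1 -0.16, Dnajb9 -0.19 and Dnajc3 -0.12 (macrophage-like), Herpud1 -0.023 (fibroblast-like), Dnajc3 -0.16 (T or NK-like), and Hsp90b1 -0.85 and Dnajb9 -0.060 (neutrophil-like). In neutrophil-like cells Hspa5 was 0.11 and Dnajb9 -0.039 at 1000 UMIs, Hspa5 0.081 at 10% mitochondrial UMIs and Xbp1 -0.015 with no filter. With a library left out, ranges crossing 0 were, in epithelial-like cells, Herpud1 -0.42 to 0.81 and Manf -0.23 to 0.29; in macrophage-like cells Hspa5 -0.13 to 0.30, Herpud1 -0.48 to 0.39, Xbp1 -0.25 to 0.58, Dnajb9 -0.33 to 0.35 and Dnajc3 -0.015 to 0.14; in fibroblast-like cells Herpud1 -0.29 to 0.55, Ddit3 -0.58 to 0.94 and Dnajb9 -0.0023 to 1.02. They were Herpud1 -1.28 to 0.20 in T or NK-like cells; in neutrophil-like cells Hspa5 -0.27 to 0.014, Manf -0.25 to 1.11, Ddit3 -0.21 to 1.25, Xbp1 -0.20 to 0.60, Dnajb9 -0.72 to 0.73 and Dnajc3 -0.25 to 0.74; and in endothelial-like cells Herpud1 -0.98 to 0.73 and Manf -0.13 to 1.11. The causes were not tested. Endothelial-like cells at 10% mitochondrial UMIs were not run, since a library kept 14 cells. With 2 mice per group and under 100 UMIs of several members in the small classes, modest differences could have been missed.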

Other observations

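Calr, which encodes the lectin chaperone calreticulin and was singled out after its values were seen, was the 1 gene of the wider list among 31 tested in all classes whose TAK-981 libraries lay above the vehicle libraries in each of the 7 classes. It had 872 and 745 CPM in TAK-981 epithelial-like cells and 424 and 460.3 CPM in vehicle cells (0.87 ± 0.22, adjusted p = 0.0955 by edgeR). In macrophage-like cells it had 1010.1 and 1006 CPM with TAK-981, against 539 and 499 CPM with vehicle (0.96 ± 0.24, adjusted p = 0.161). In neutrophil-like cells the fold change was 1.19 ± 0.42 (adjusted p = 0.197 by edgeR). DESeq2 called Calr in epithelial-like (adjusted p = 0.00204) and macrophage-like cells (adjusted p = 0.0114) and in no other class. Over all genes DESeq2 made 1268 and 258 calls in these 2 classes.

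Acinar-like cells were too few in vehicle tumours for a comparison, with 95 and 32 cells in the TAK-981 libraries and 11 and 0 in the vehicle libraries. In those of the TAK-981 libraries Hspa5 had 585 and 284 CPM and Xbp1 253 and 205 CPM.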
